A study of Sus scrofa with 6 samples.

Results

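Lysosomes digest what a cell takes up or discards, and autophagy delivers the cell's own proteins and organelles to them. Acid hydrolases, among them the cathepsin proteases, work inside a lumen acidified by a proton pump, while membrane proteins keep the organelle intact and export its products. In autophagy a double membrane forms around cargo, is coated with small ubiquitin-like proteins of the LC3 and GABARAP families, and fuses with the lysosome. Kidney tubules, the proximal tubule above all, use this system for the proteins they reabsorb from the filtrate, and resident macrophages are also rich in lysosomes.

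Expression of 55 lysosome and autophagy genes was examined in renal medulla of 3 CPB pigs and 3 Sham pigs, with 1 Affymetrix porcine array per animal. A probe set was taken as a member when the array annotation gave it a single symbol and that symbol was on the list. This found 74 probe sets for 44 genes, out of 23999 probe sets tested. They comprised 12 probe sets for 7 cathepsins, 25 for 15 other hydrolases and their activators, 16 for 8 membrane and cholesterol export proteins and 21 for 14 autophagy genes. The remaining 11 genes, CTSA, CTSF, CTSL, GAA, ARSB, NAGLU, PPT1, LAMP3, ATG5, ULK1 and UVRAG, had no such probe set and were not analysed here. The rule used no intensity.

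CPB pigs had 2.5 hours of cardiopulmonary bypass under general anaesthesia, and Sham pigs had 2.5 hours of general anaesthesia. All 6 were adult females, White-Landrace crossbred in the labels and Large White-Landrace crossbred in the study's methods, and per the methods both groups also had a neck dissection and heparin, so the comparison leaves those out. Renal medulla was taken 24 hours after the intervention, from blocks that the methods describe as outer medulla. The values are RMA intensities, which are corrected for background and made comparable across arrays, and every difference below is CPB minus Sham on the log2 scale. The precision rests on 3 animals per group, and an exact two-sided permutation test of 3 against 3 cannot go below p = 0.1. For genes with several probe sets the values are those of the brightest one unless another is named.

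The pigs differed in markers of tissue makeup in a way that cut across the groups. Summed intensity of 15 of 22 listed proximal tubule markers was between 9253 and 44193 in CPB pigs and between 8911 and 36842 in Sham pigs, high in CPB 1, CPB 3 and Sham 2 and low in CPB 2 and Sham 1. All 15 had a higher CPB mean, with a median difference of 0.84, and 0 of 15 reached an unadjusted limma p under 0.05. Of all genes with a single symbol, 56.2% had a higher CPB mean. Urothelium markers, 6 of 13, ran the opposite way, with sums between 777 and 5622 in CPB pigs and between 704 and 4145 in Sham pigs. Macrophage and myeloid markers, 18 of 26, summed to between 1842 and 2170 in CPB pigs and between 1875 and 2869 in Sham pigs, with a lower CPB mean for 11 of the 18 and a median difference of -0.25. No measured marker was listed at 0. The 4 measured markers of the thick ascending limb, a tubule segment of the outer medulla, were bright, at a median intensity percentile of 97.2, while UMOD and SLC12A1, which define that segment, were not among them. Across probe sets, log2 values of CPB 1, CPB 3 and Sham 2 correlated at 0.984 to 0.990 with each other and those of CPB 2, Sham 1 and Sham 3 at 0.967 to 0.980, against 0.919 to 0.958 between the sets, and no 2 arrays were duplicates.

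No lysosome or autophagy gene passed the comparison between CPB and Sham. In limma, 0 of 74 member probe sets fell under an unadjusted p of 0.05, set against 1.4% of all probe sets, and 0 of 74 met the study's threshold of that p with at least 1.6-fold, where 0.304% did. After Benjamini-Hochberg adjustment in limma 0 members and 0% of all probe sets passed, with the smallest adjusted p at 0.995. The methods' t-test gave 2 member probe sets under 0.05, or 2.7%, against 2.08% of all probe sets, and 0 after adjustment. These were dimmer probe sets of PSAP and SMPD1. CPB and Sham arrays did not overlap for 4 of 74 member probe sets, or 5.41%, close to the 5.27% of all probe sets. The means were higher in CPB for 20 genes, or 45.5%, and lower for 24, where 56.2% of genes with a single symbol were higher. The median difference was -0.04, against 0.03 over all probe sets.

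Many of the intervals were wide. The 95% interval of the difference lay within 1.6-fold in both directions for 21 of 44 genes, or 47.7%, against 57.2% of the 6765 genes with a single symbol and 62.5% of all probe sets. It did so for 1 of 7 cathepsins, 6 of 15 hydrolases, 6 of 8 membrane proteins and 8 of 14 autophagy genes. For the other 23 genes the interval reached past 1.6-fold in at least 1 direction.

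**Figure D1:**
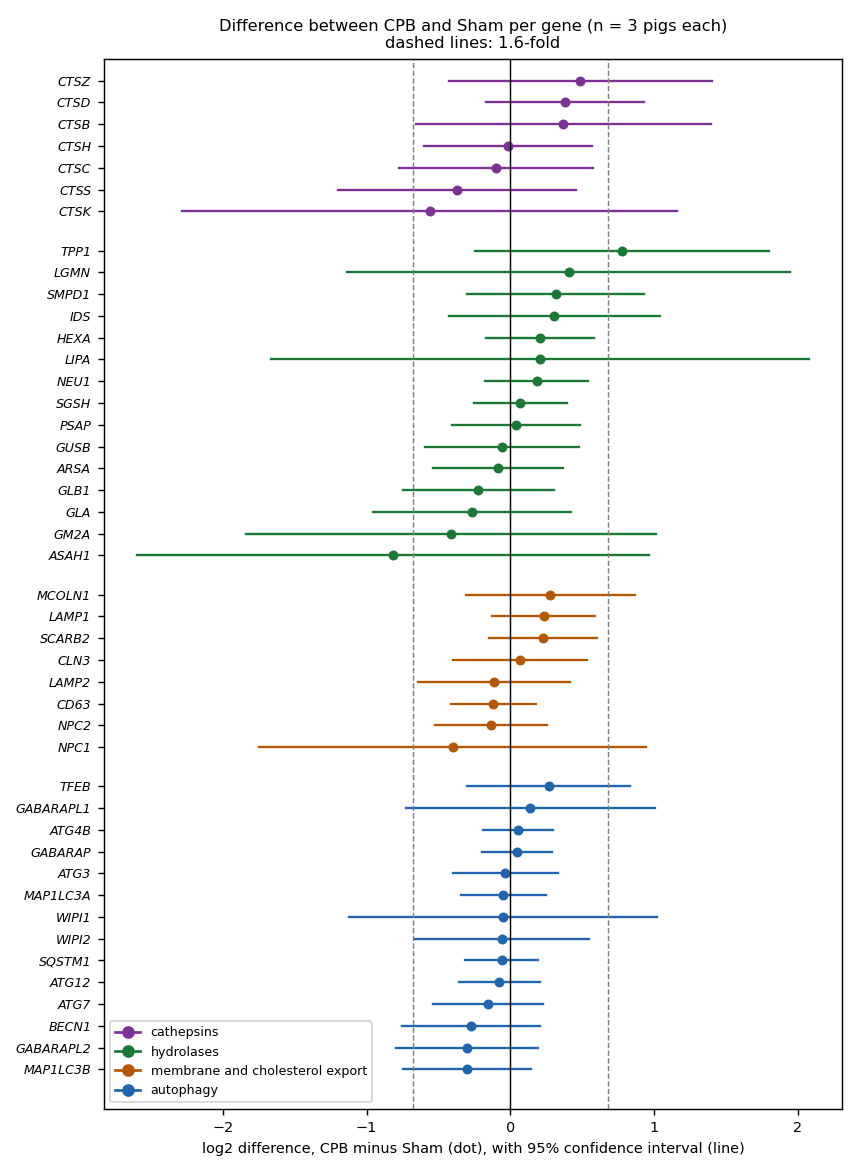
Difference between CPB and Sham for each of the 44 genes, on the log2 scale (dots, brightest probe set), with its 95% confidence interval from limma (lines, n = 3 pigs per group) and dashed lines at 1.6-fold. Every interval crosses 0, and intervals are widest for LIPA, ASAH1 and CTSK and narrow for SQSTM1, ATG4B and GABARAP.

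The cathepsins are the lysosome's best known proteases, and the 7 measured here split into 3 with a higher and 4 with a lower CPB mean, at a median difference of -0.01. CTSB, a cysteine protease, had intensities of 9379.5, 4304 and 10012 in CPB pigs 1, 2 and 3, against 3859, 8259.8 and 5873 in Sham pigs 1, 2 and 3. Its group means were 7898 ± 3129 in CPB and 5997 ± 2203 in Sham (SD, n = 3 each). CPB 1, CPB 3 and Sham 2 were its 3 highest arrays, the groups overlapped, and the difference was 0.37 (SE 0.42, 95% interval -0.66 to 1.40). With 1 array left out it was between 0.09, without Sham 1, and 0.76, without CPB 2. CTSZ, a carboxypeptidase, gave 888, 427 and 960.1 in CPB pigs and 363, 606 and 601 in Sham pigs, again with CPB 2 low within its group and Sham 1 lowest of all. The difference for CTSZ, 0.49 (SE 0.37, 95% interval -0.43 to 1.40), was the largest positive one among the cathepsins. CTSD, the main aspartic protease of the lysosome, had 1165, 712 and 774 in CPB pigs, against 765, 661 and 574 in Sham pigs. CPB 1 stood well above the other 5 animals, and the difference of 0.38 (SE 0.22) had the smallest p of the cathepsins. CTSH, an aminopeptidase, differed by only -0.01 (SE 0.24).

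The other cathepsins had lower CPB means, with different arrays in front. CTSK, a collagen-degrading protease, was measured at 352, 1306 and 340.3 in CPB pigs and 857, 385 and 1523 in Sham pigs. Here CPB 2, Sham 1 and Sham 3 were the high animals, whereas CTSB was high in the other 3, and the difference of -0.56 (SE 0.71, 95% interval -2.29 to 1.16) was smaller than its error. With 1 array left out it was between -1.20, without CPB 2, and -0.09, without Sham 3. CTSS, which processes antigen in immune cells, had the same 3 high animals, with 1404, 1761 and 889 in CPB pigs and 2048, 1144 and 2028 in Sham pigs. Its difference was -0.37 (SE 0.34, 95% interval -1.20 to 0.46). A second CTSS probe set gave -0.83 (SE 0.43, 95% interval -1.88 to 0.23) and another one -0.27 (SE 0.42), so the sign was shared while the size was not. With the proximal tubule markers as a covariate the differences were -0.15 for CTSK and -0.17 for CTSS, and with the macrophage and myeloid markers 0.15 and 0.12. The unadjusted limma p in these fits was between 0.47 and 0.86.

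CTSC, the dipeptidyl peptidase that activates serine proteases of immune granules, was read by 4 probe sets, all with a lower CPB mean. The brightest gave 2258, 1601 and 3369 in CPB pigs and 2439, 2691 and 2278 in Sham pigs, a difference of -0.10 (SE 0.28, 95% interval -0.77 to 0.57) that was positive, at 0.16, without CPB 2. On a dimmer one the arrays did not overlap, with 444, 274 and 409.5 in CPB pigs and 514, 555 and 463 in Sham pigs. That difference of -0.47 (SE 0.21) had the smallest p of any member probe set and did not pass (limma adjusted p = 0.995). The remaining CTSC probe sets gave -0.41 and -0.21.

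**Figure D2:**
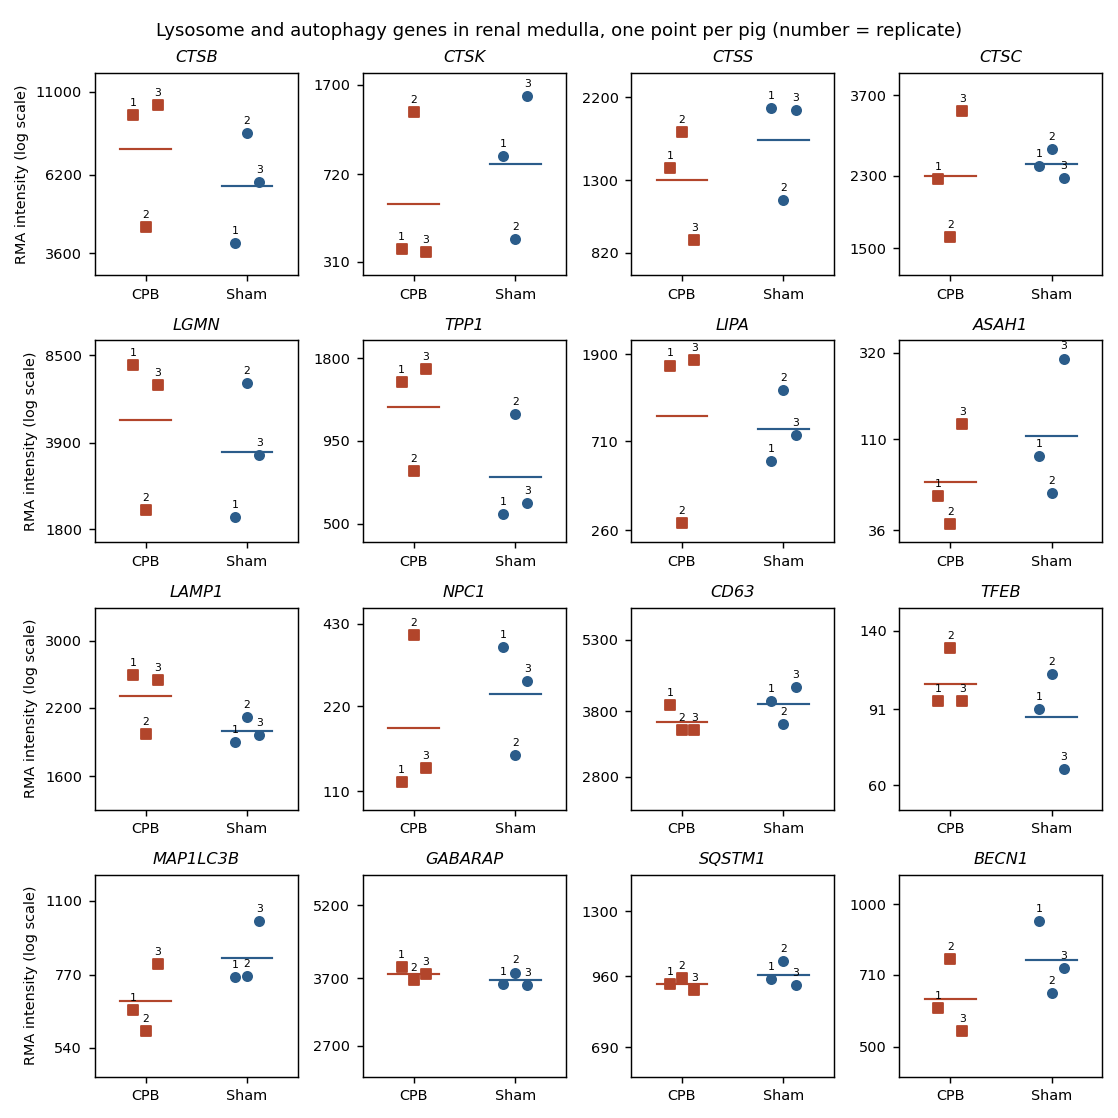
RMA intensity (log axis, its range differs between panels) of 16 genes in each pig, CPB as squares and Sham as circles, numbered by replicate, with a line at the mean of the log2 values of each group. CTSB, LGMN, TPP1 and LIPA were highest in CPB 1, CPB 3 and Sham 2, CTSK, CTSS and NPC1 in CPB 2, Sham 1 and Sham 3, and the 6 values of GABARAP and SQSTM1 lay close together.

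Among the other luminal enzymes 9 of 15, or 60%, had a higher CPB mean and 6 a lower one, with a median difference of 0.07. The share with a higher mean was 56.2% over genes with a single symbol. TPP1, a tripeptidyl peptidase, had the smallest limma p of the 44 genes. It was measured at 1499.9, 752 and 1657 in CPB pigs and at 539.98, 1166 and 588 in Sham pigs. All 3 CPB values were above Sham 1 and Sham 3, but Sham 2 was above CPB 2. The difference was 0.78 (SE 0.42, 95% interval -0.25 to 1.80), or 1.72-fold. Its second probe set gave 0.40 (SE 0.30). The difference on the brightest probe set was larger without CPB 2, at 1.13 (limma adjusted p = 0.742), and without Sham 2, at 1.13 (limma adjusted p = 0.533). It was between 0.56 and 0.64 without any one of the other arrays. Without both CPB 2 and Sham 2 it was 1.48 (limma adjusted p = 0.0345), in a fit where group and tissue makeup cannot be told apart. Group and tissue makeup were not separated without CPB 2 alone either, as CPB 1 and CPB 3 were both high in proximal tubule markers. With the proximal tubule markers as a covariate the difference was 0.49 (limma adjusted p = 0.998).

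LGMN, an asparaginyl endopeptidase that also trims cathepsins into their mature forms, also swung widely between animals. Values were 7782, 2136 and 6506 in CPB pigs, against 2004, 6649 and 3491 in Sham pigs, so CPB 2 sat with Sham 1 and Sham 2 sat with the high CPB pigs. The difference was 0.41 (SE 0.63, 95% interval -1.14 to 1.95), and its sign turned, to -0.02, without Sham 1, and to -0.05 with the proximal tubule covariate.

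The spread between animals was widest for LIPA and ASAH1. LIPA, the acid lipase for cholesteryl esters, which was singled out after its values were seen, had 1675, 283 and 1781 in CPB pigs and 566, 1270.5 and 765 in Sham pigs. The highest array, CPB 3, was 6.30-fold above the lowest, CPB 2, although both had bypass. The difference between the groups was 0.21 (SE 0.77, 95% interval -1.67 to 2.08). It was 1.08 without CPB 2 and between -0.25 and 0.52 without any one of the other arrays, and 1.39 (limma adjusted p = 0.0469) without both CPB 2 and Sham 2. ASAH1, the acid ceramidase, spread further still, with 54.5, 38.6 and 132 in CPB pigs and 89.8, 56.8 and 298 in Sham pigs. Sham 3 was 7.71-fold above CPB 2, and the group difference of -0.82 was the largest negative one of all 44 genes on the brightest probe set (SE 0.73, 95% interval -2.59 to 0.96). It was -0.13 without Sham 3, -0.44 without CPB 2 and -1.32 without CPB 3 or without Sham 2.

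SMPD1, the acid sphingomyelinase, gave 304, 461 and 274 in CPB pigs and 330.5, 277 and 218 in Sham pigs, a difference of 0.32 (SE 0.25, 95% interval -0.30 to 0.93). All 3 of its probe sets had a higher CPB mean. On a dimmer one the groups did not overlap, with 206, 191 and 205 in CPB pigs against 177, 188 and 179 in Sham pigs, a small difference of 0.14 (SE 0.10, 95% interval -0.10 to 0.39). PSAP, the precursor of the saposins that help sphingolipid hydrolases, was near level, at 1347, 1258 and 1120.2 in CPB pigs and 1425, 949.8 and 1289 in Sham pigs. Its difference was 0.04 (SE 0.18, 95% interval -0.41 to 0.49). A dim PSAP probe set had 28.0, 25.9 and 28.0 in CPB pigs and 30.4, 29.0 and 29.95 in Sham pigs, without overlap but with a difference of only -0.13 (SE 0.10). The activator GM2A and the galactosidase GLA had lower CPB means, at -0.41 (SE 0.58) and -0.27 (SE 0.28).

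The enzymes that degrade glycans spread less between animals than LIPA and ASAH1, which had the widest spread of all members. HEXA, a hexosaminidase subunit, had 1326, 1067 and 1302 in CPB pigs against 918, 1188 and 1091 in Sham pigs. Sham 1 was its lowest array, and the difference was 0.21 (SE 0.15, 95% interval -0.17 to 0.59). NEU1, the lysosomal sialidase, gave 216, 192 and 243 in CPB pigs and 178, 178 and 217 in Sham pigs, with Sham 3 inside the CPB range and a difference of 0.18 (SE 0.15, 95% interval -0.17 to 0.54). The rest of this set, IDS, SGSH, GUSB and GLB1, and the sulfatase ARSA lay between -0.22 and 0.31.

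The membrane proteins divided evenly, 4 higher and 4 lower in CPB, at a median difference of -0.02. LAMP1, a glycoprotein that lines the lysosomal membrane, was 2557, 1944 and 2504 in CPB pigs and 1877, 2106 and 1939.6 in Sham pigs. CPB 1 and CPB 3 were above every Sham pig and CPB 2 was within the Sham range. The difference was 0.23 (SE 0.15, 95% interval -0.12 to 0.59), which became 0.36 without CPB 2 (limma adjusted p = 0.742). The CPB pigs left in that fit were both high in proximal tubule markers, so it did not separate group from tissue makeup. SCARB2, the receptor that carries glucocerebrosidase to lysosomes, and MCOLN1, a calcium channel of the lysosomal membrane, had their 3 highest values in CPB 1, CPB 3 and Sham 2. SCARB2 had 953, 749 and 1000.4 in CPB pigs and 699.6, 836 and 764 in Sham pigs, a difference of 0.23 (SE 0.15, 95% interval -0.15 to 0.60). Its other probe set differed by -0.10 (SE 0.43). MCOLN1 had 204, 130.03 and 224 in CPB pigs and 145, 175.5 and 131 in Sham pigs, a difference of 0.28 (SE 0.24, 95% interval -0.31 to 0.87).

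NPC1, which exports cholesterol from the lysosome together with NPC2, was high in the other 3 animals, CPB 2, Sham 1 and Sham 3. It was measured at 118, 393 and 133 in CPB pigs and at 356, 147 and 270.2 in Sham pigs. CPB 2 was the highest of all 6 and CPB 1 the lowest, 3.32-fold apart, and the group difference was -0.40 (SE 0.55, 95% interval -1.75 to 0.95). With 1 array left out it was between -0.95, without CPB 2, and -0.08, without CPB 1. NPC2 varied less, with a difference of -0.14 (SE 0.16). CD63, a tetraspanin of late endosomes and lysosomes, was close to level, at 3903, 3477 and 3476 in CPB pigs and 3982, 3573 and 4253 in Sham pigs, and its interval of -0.42 to 0.18 around -0.12 lay inside 1.6-fold. CLN3, a membrane protein lost in a childhood storage disease, differed by 0.07 (SE 0.19). Its dimmer probe sets had the other sign, at -0.25 (SE 0.16) and -0.10 (SE 0.13). LAMP2 gave -0.11 on the brightest of 4 probe sets and between -0.09 and 0.21 on the others.

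Autophagy genes had mostly lower CPB means, 10 of 14, with a median difference of -0.05 and 0 of 14 under an unadjusted p of 0.05. A higher mean was found for 28.6% of them, against 56.2% of genes with a single symbol. TFEB, the transcription factor that switches on lysosome and autophagy genes, was of median brightness on the array, with 95.1, 127 and 95.1 in CPB pigs and 90.9, 111 and 65.6 in Sham pigs. CPB 2 was its highest array and Sham 3 its lowest, and the difference was 0.27 (SE 0.23, 95% interval -0.30 to 0.83), the largest positive one among the autophagy genes. BECN1, a subunit of the lipid kinase complex that starts the autophagosome, had 603, 766 and 540.5 in CPB pigs and 924, 649 and 735 in Sham pigs. CPB 2 lay above 2 of the Sham pigs, and the difference was -0.27 (SE 0.20, 95% interval -0.75 to 0.21), with -0.18 on its second probe set. WIPI1 and WIPI2, which bind the growing membrane, differed by -0.05 (SE 0.44) and -0.06 (SE 0.25). The conjugation enzymes and partners ATG3, ATG4B, ATG7 and ATG12 were all between -0.15 and 0.06.

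MAP1LC3B, the LC3 protein most used as an autophagosome marker, had the smallest p among the autophagy genes. Its brightest probe set gave 648, 587 and 812 in CPB pigs and 760.03, 763 and 999 in Sham pigs. CPB 3 lay among the Sham pigs while CPB 1 and CPB 2 were below them all, and the difference was -0.30 (SE 0.18, 95% interval -0.75 to 0.14). On its second probe set the groups did not overlap, with 589, 558 and 626 in CPB pigs and 669, 667 and 795 in Sham pigs. That difference, -0.26 (SE 0.12, 95% interval -0.56 to 0.04), was about the same size. GABARAPL2, a related coat protein, had 1329, 886 and 1346 in CPB pigs and 1509.95, 1267 and 1550.2 in Sham pigs, with CPB 2 far below the rest, and differed by -0.30 (SE 0.20, 95% interval -0.79 to 0.19). MAP1LC3A and GABARAPL1 differed by -0.05 (SE 0.12) and 0.14 (SE 0.35).

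A few autophagy genes hardly varied between pigs on their brightest probe set, and there the comparison was precise. GABARAP was 3902, 3674 and 3769 in CPB pigs and 3606, 3799 and 3589.9 in Sham pigs, 1.09-fold between the highest and the lowest array, with a difference of 0.05 (SE 0.10) and an interval of -0.20 to 0.29. Its second probe set varied more, with 2136, 1760 and 2260 in CPB pigs and 1949, 2274 and 2095 in Sham pigs. That difference was -0.04 (SE 0.14). SQSTM1, the p62 receptor that carries cargo into autophagosomes, was 925, 951 and 899.7 in CPB pigs and 949, 1029 and 919.7 in Sham pigs. Its difference was -0.06 (SE 0.10, 95% interval -0.32 to 0.20). These measure mRNA only. ATG4B, the protease that trims LC3, was the least variable of the 44, at 1.07-fold between the highest and the lowest array.

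The spread between pigs of one group was wide for the cathepsins and hydrolases. The pooled SD within groups had a median of 0.30 on the log2 scale for the 44 genes, against 0.24 for all genes with a single symbol and 0.22 for all probe sets. It was 0.49 for cathepsins, 0.35 for hydrolases, 0.22 for membrane proteins and 0.21 for autophagy genes. The median gene had a 1.72-fold range over the 6 arrays, against 1.56-fold for all genes with a single symbol and 1.48-fold for all probe sets. No test of these medians was made.

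The order of the animals was shared by many members. The 3 highest arrays were CPB 1, CPB 3 and Sham 2 for 15 of 44 genes, or 34.1%, against 21.4% of all probe sets. These were CTSB, CTSH, CTSZ, HEXA, IDS, SGSH, LIPA, TPP1, LGMN, LAMP1, SCARB2, MCOLN1, GABARAP, GABARAPL1 and WIPI1, and the same 3 arrays were highest in proximal tubule markers. CPB 2, Sham 1 and Sham 3 were the highest arrays for 8 genes, or 18.2%, against 16.4% of all probe sets. These were CTSK, CTSS, GLA, GM2A, NPC1, CLN3, BECN1 and WIPI2, and the same 3 arrays were highest in urothelium markers. CPB 3, Sham 1 and Sham 3 were the highest arrays for GUSB, ASAH1, NPC2, ATG7, ATG12 and GABARAPL2, which is 6 of 44, or 13.6%, against 4.36% of all probe sets. Members were counted on 1 probe set per gene and the shares on all probe sets, so they are not matched. The order also counts genes of little range, such as GABARAP at 1.09-fold. In whole tissue, fewer cells of a type and less RNA per cell cannot be told apart, and the part of tissue makeup in the values of these genes was not tested beyond the fits with a covariate.

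**Figure D3:**
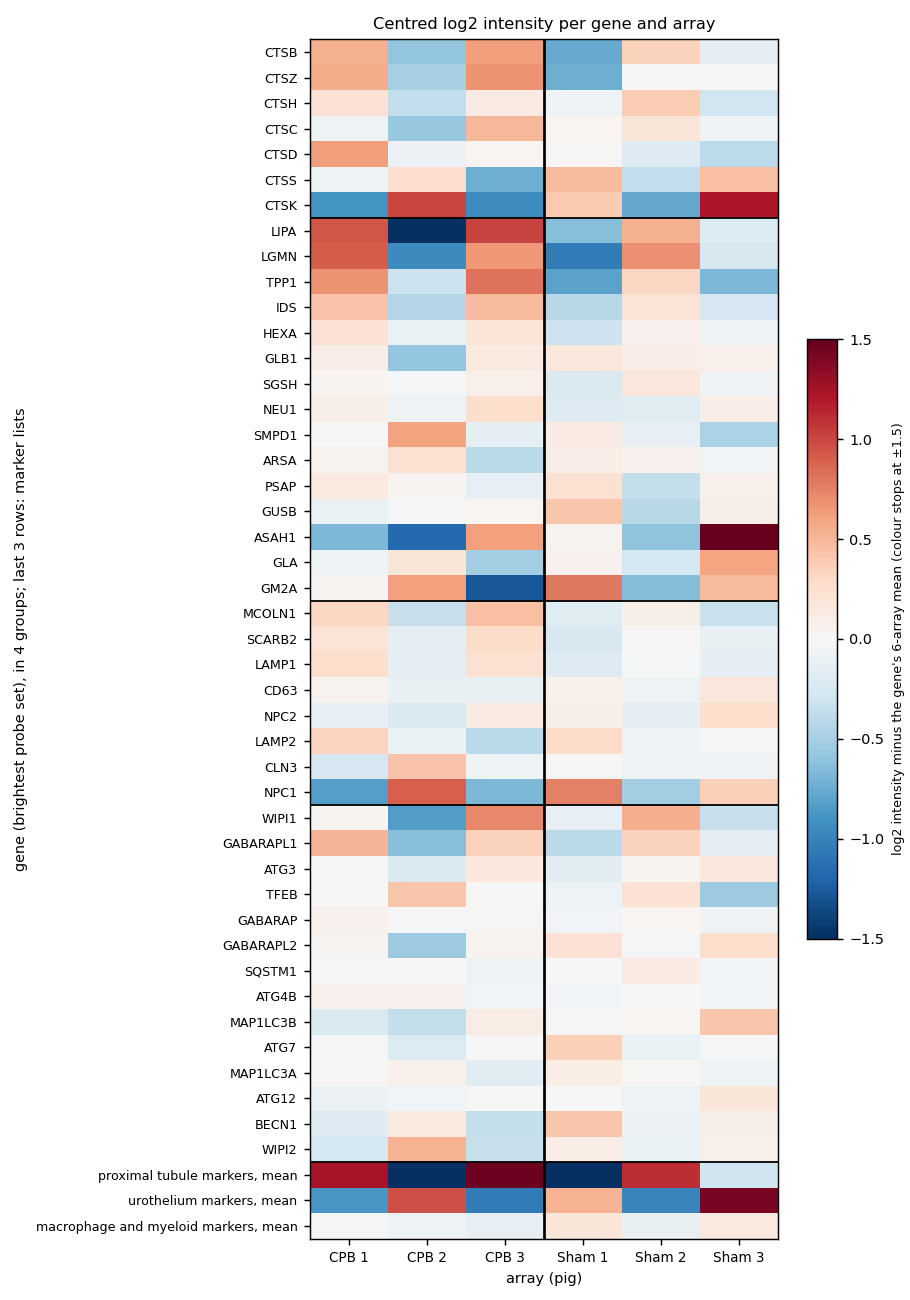
Log2 intensity of each of the 44 genes (rows, brightest probe set) on each array (columns, CPB left of the line and Sham right of it) minus the mean of that gene over 6 arrays, with colours that stop at 1.5, and the mean of 3 marker lists in the last rows. Rows within each of the 4 sets run downwards by the sum of CPB 1, CPB 3 and Sham 2, so the order of rows is by measured value. LIPA, LGMN, TPP1 and CTSB have the same 3 highest arrays as the proximal tubule row. CTSK and NPC1 have the same 3 highest arrays as the urothelium row, though not in the same order for NPC1.

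The counts depended on CPB 2, the lowest CPB pig in proximal tubule markers, and on Sham 2, the highest Sham pig. Without CPB 2, 9 of 74 member probe sets had an unadjusted limma p under 0.05, or 12.2%, against 5.03% of all probe sets. All 9 had a higher CPB mean, for LAMP1, CTSZ, both probe sets of TPP1, IDS, MCOLN1, LAMP2 on another probe set, SCARB2 and LIPA, and 0 passed adjustment. The CPB pigs left in that fit, CPB 1 and CPB 3, had mean centred proximal tubule levels of 1.24 and 1.47. Those of Sham 1, Sham 2 and Sham 3 were -2.01, 1.11 and -0.30. Group and tissue makeup were therefore not separated in the fit without CPB 2. Without Sham 2 the count was 2 of 74, a CTSS and a TPP1 probe set, or 2.7%, against 9.24%. With both left out it was 20 of 74, or 27.0%, against 23.4%, and 3 member probe sets, or 4.05%, passed the adjusted limma p, against 3% of all probe sets. These were 1 of TPP1 and both of LIPA. Since those 2 animals stand apart by marker level, the remaining 2 against 2 also differ in proximal tubule markers, and group and tissue makeup cannot be told apart there.

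Of the 19 genes read by more than 1 probe set, 10 had the same sign on all of them. CTSC, CTSS, GM2A, BECN1, ATG12 and MAP1LC3B were lower in CPB on each, and SGSH, SMPD1, LIPA and TPP1 higher. The other 9, among them LAMP2, SCARB2, PSAP and GABARAP, had both signs. Probe sets of 1 gene share the same 6 RNA samples, so they are not independent measurements.

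**Figure D4:**
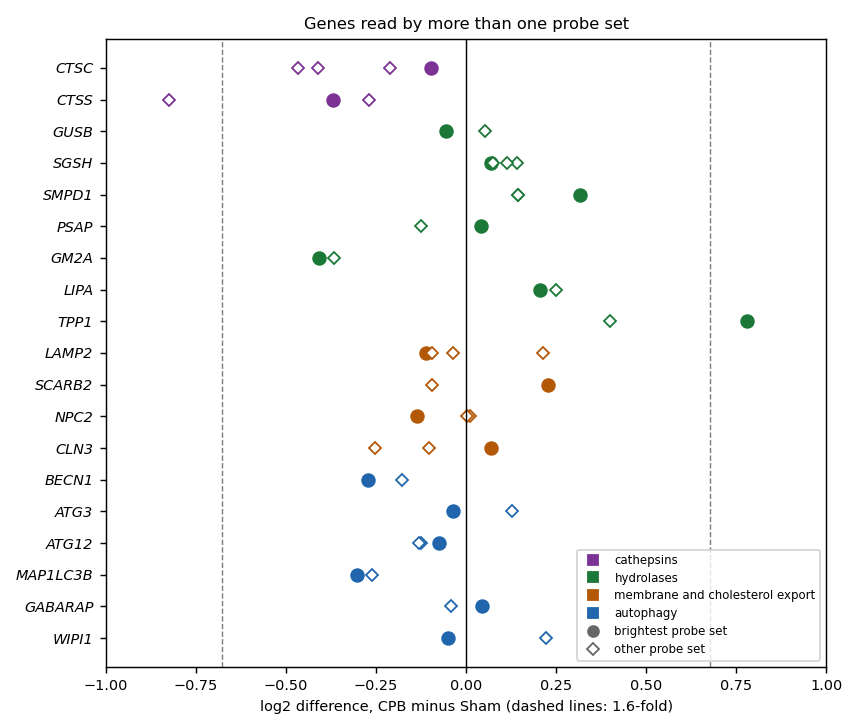
Difference between CPB and Sham on the log2 scale for every probe set of the 19 genes with more than 1, filled circles for the brightest and open diamonds for the others, with dashed lines at 1.6-fold. TPP1 at 0.78 and CTSS at -0.83 on a second probe set are the only points beyond the dashed lines, and neither had a p under 0.05.

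Other genes of the same pathways were taken from lists chosen with earlier results of these data known. They gave 1 unadjusted limma p under 0.05 among 80 genes, where 1.4% of all probe sets had one, and 0 adjusted ones. Of the listed proton pump genes, 14 of 18 were measured, 12 with a higher and 2 with a lower CPB mean at a median of 0.13. The list was not split by the membrane the pump sits in. A higher mean was found for 56.2% of genes with a single symbol. Of the 14 pump genes, 0 reached an unadjusted limma p under 0.05. Their mean centred level was highest in CPB 1, CPB 3 and Sham 2, as for the proximal tubule markers. ATP6V0C, a subunit of the membrane part of the pump, had 3109, 2964 and 3172 in CPB pigs and 2418, 2907 and 2397 in Sham pigs. All CPB values were above all Sham values, by a small margin over Sham 2, and the difference was 0.26 (SE 0.12, limma adjusted p = 0.995).

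Further lysosomal enzymes, 15 of 26 measured, were higher for 10 and lower for 5 at a median of 0.12, with 0 under an unadjusted limma p of 0.05. MAN2B1, the lysosomal alpha-mannosidase, had 493, 394 and 373 in CPB pigs and 348, 373 and 292 in Sham pigs, and the difference was 0.31 (SE 0.16, limma adjusted p = 0.995). CPB 3 and Sham 2 were within 1 unit of each other, so the groups only just failed to overlap. Sorting and trafficking proteins, 20 of 27 measured, were higher for 16 and lower for 4 at a median of 0.07. In both lists this stands beside 56.2% higher among genes with a single symbol. Of the 20 sorting and trafficking genes, 1 had an unadjusted limma p under 0.05. This was VPS18, a tethering protein for fusion with lysosomes, at 220.1, 229 and 206 in CPB pigs and 174, 195 and 155 in Sham pigs. Its difference of 0.33 (SE 0.13, limma adjusted p = 0.995) lost that p in several other settings.

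Autophagy genes outside the 44, 17 of 33 measured, were higher for 6 and lower for 11 at a median of -0.12, with 0 under an unadjusted limma p of 0.05. Among genes with a single symbol 56.2% were higher. ATG4A, an LC3-trimming protease, had 186, 149 and 162 in CPB pigs and 114, 153 and 99.6 in Sham pigs, where only Sham 2 reached the CPB range. The difference was 0.45 (SE 0.19, limma adjusted p = 0.995). Regulators of TFEB and mTORC1, 11 of 19 measured, were higher for 6 and lower for 5 at a median of 0.02, and the smallest p was that of RRAGA, a Rag GTPase, at 0.24 (SE 0.14, limma adjusted p = 0.995). Cystatins, which inhibit cathepsins, were represented by 3 of 5 genes. CST3 had 1475, 1711 and 1478 in CPB pigs and 1662, 1481 and 1345 in Sham pigs, overlapping throughout, with a difference of 0.06 (SE 0.13, limma adjusted p = 0.995).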

How the data were processed

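RNA from renal medulla of 6 pigs was hybridised to Affymetrix porcine arrays. The authors normalised the arrays with RMA (background correction, quantile normalization, median polish) and deposited intensity values for 24123 probe sets, linear as judged from their range. No genome build is named for them, so no positions or sequences are given. Per the study's methods the arrays were processed in ArrayStar.

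From these, log2 was taken, 124 control probe sets were left out, and 23999 were fitted with limma 3.58.1 in R 4.3.3 (lmFit, eBayes, group as the only term), with Benjamini-Hochberg adjustment over all of them. Gene symbols come from the array annotation, which lists 10297 of the probe sets, 10099 with 1 symbol and 198 with several. The 13826 others were unnamed here, and 3 probe sets that name a member beside another gene were not used. The probe set of highest mean intensity stood for the gene in counts and medians. The calculation of the fit was checked on simulated data with independent noise for each probe set and array. Those data lack the pattern that these arrays share across probe sets.

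The members, marker lists, pathway lists and alternatives were chosen with earlier results of these data known, and no list was tested as a set. Members described with values for each pig were, in each of the 4 sets, the 3 with the smallest limma p, the brightest, and those with the largest and smallest difference, with TFEB, SQSTM1 and any member whose groups did not overlap. In each pathway list it was the gene with the smallest p, and CST3. LIPA was added after its values were seen, and the other genes are given by difference only.

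The alternatives were the methods' t-test, median centring, array weights, repeated quantile normalization, a robust fit with an intensity trend, leaving out dim probe sets, keeping control probe sets, fold minimums of 1.5 and 2, the mean of all probe sets of a gene, the replicate number as a block, covariates for proximal tubule and macrophage markers, and fits without each array or without both arrays numbered 2. The array median intensity was between 94.3 and 96.5. Deviations of same-numbered CPB and Sham pigs from their group means correlated across probe sets at -0.39, -0.68 and -0.02. These values cannot show whether such pigs were handled together. The labels give only a biological replicate number and the methods name no pairs, so the main fit did not use the numbers as pairs. The fit with the replicate number as a block does use them so, and is given only as an alternative.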

Additional observations from a re-analysis of the deposited data

How the results depend on the processing

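With the 3 pigs per group, the count of 0 member probe sets at an unadjusted limma p under 0.05 became 2 with the methods' t-test (2.7%, against 2.08% of all probe sets), 21 with array weights (28.4% against 22.9%), 3 with the replicate number as a block (4.05% against 1.12%), 2 with the proximal tubule covariate (2.7% against 2.57%), 1 with the macrophage covariate (1.35% against 0.804%), 20 without both arrays numbered 2 (27.0% against 23.4%), and between 0 and 9 with 1 array left out at a time. At the study's threshold 0 became 9 with array weights (12.2% against 8.82%), 2 with the replicate block (2.7% against 0.317%), 12 without both arrays numbered 2 (16.2% against 12.8%), and between 0 and 4 with 1 array left out. The adjusted count stayed at 0 except without both arrays numbered 2, where it was 3 (4.05% against 3%). Array weights, whose estimation stopped before it converged, gave CPB 1 a weight of 6.16 and CPB 2 and Sham 2 weights of 0.374 and 0.344. Over all probe sets the study's threshold gave 73 calls, and 30 with the t-test, 108 with the proximal tubule covariate, 693 without CPB 2 and 701 without Sham 2. The cause of these shifts was not tested. The study's own count at this threshold was larger than the 30 that the t-test on log2 values gave here.

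The cathepsin median of -0.01 was 0.30 with array weights, -0.14 with the proximal tubule covariate, 0.12 with the macrophage covariate, 0.355 without both arrays numbered 2 and between -0.0923 and 0.18 with 1 array left out. The membrane protein median of -0.02 was 0.0649 and 0.0988 with the proximal tubule and macrophage covariates, -0.15 without both arrays and between -0.0781 and 0.0904 with 1 array left out. The medians of all members, of hydrolases and of autophagy genes moved by less than the spread between pigs. With the macrophage covariate the sign turned for CTSB (-0.0439), CTSK (0.15), CTSS (0.12), LGMN (-0.22) and NPC1 (0.10), and with the proximal tubule covariate for LGMN (-0.0539). These differences had an unadjusted limma p between 0.71 and 0.93, so their signs are uncertain. The part of macrophage content in them was not tested. Without both arrays the sign turned for CTSC (0.23), PSAP (-0.14) and CST3 (-0.0178), and with array weights for CST3 (-0.00014). With 1 array left out the differences ranged between -0.37 and 0.16 for CTSC, -0.13 and 0.16 for PSAP, -0.0161 and 0.98 for LGMN, and -0.0162 and 0.14 for CST3. VPS18 lost its p under 0.05 in 6 other settings and in 5 of the fits with 1 array left out. The difference in ASAH1 kept its value of -0.82 with the replicate block and passed an unadjusted limma p of 0.05 there (limma adjusted p = 0.999).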
